A study of Mus musculus with 5 samples.

Results

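The granins and the enzymes that process peptide precursors were taken as 10 genes chosen by name, of 32531 genes listed. They comprised 6 granins (Chga, Chgb, Scg2, Scg3, Scg5 and Vgf) and 4 enzymes (Pcsk1, Pcsk2, Cpe and Pam). All 10 passed the filter on low counts, as did 14136 genes in all. The RNA came from adult mice carrying the KL100 Rbp4-Cre driver together with Rosa26-LSL-EGFP/Rpl10a, a Cre-dependent EGFP-tagged ribosomal protein, and every library of either tissue carried both alleles. Tagged polysomes were pulled down with anti-EGFP antibodies (translating ribosome affinity purification, TRAP) from cerebral cortex in 2 libraries and from dentate gyrus in 3. No treatment was given. The driver marks the cells that express Cre under Rbp4 regulatory sequence, and every library was a pulldown, so background binding was not measured. Nothing in the labels says that replicates came from separate mice. The p-values therefore reflect only how far these samples vary, and that variation may be technical.

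Neuropeptides are made as long precursors that are sorted into dense core vesicles with the granins, acidic proteins that condense in the secretory pathway. Prohormone convertases cut the precursors after pairs of basic residues, a carboxypeptidase trims those residues from the new ends, and an amidating enzyme modifies many of the finished peptides. Granins are both packing material of the vesicle and precursors of peptides themselves. Several genes of this pathway are known targets of cyclic AMP and neuronal activity through the cyclic AMP response element (CRE), a short sequence bound by the factor CREB.

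The CRE was searched in the promoters because several of the genes belong to this known class, and with the changes below in view. A share above that of all promoters was therefore likely beforehand and is not a test. RefSeq promoters on GRCm38.p6, 250 bases before and 50 bases after each start, matched 8 of the 10 genes; Vgf and Cpe were not matched. The palindrome TGACGTCA was found in 3 of them, Chgb, Scg2 and Pcsk1, and in 1.79% of all 32851 promoters of that length. Its leading base lay 72, 68 and 78 bases before the RefSeq start. Each window holds 30 bases 5′ to 3′ on the gene's strand, with the motif in capitals.
Chgb: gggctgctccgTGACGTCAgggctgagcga
Scg2: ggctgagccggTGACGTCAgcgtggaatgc
Pcsk1: ccaggtagatcTGACGTCAagagatggctt
These windows are at chr2:132781559-132781588 (plus strand), chr1:79440076-79440105 (minus strand) and chr13:75089768-75089797 (plus strand). The Chgb and Scg2 windows lie inside the GENCODE bounds of these genes given below, so they are upstream only of the RefSeq start. The Pcsk1 window lies before the GENCODE start as well. The shorter core TGACG, searched on both strands and contained in the palindrome, was in 20.8% of all promoters. That share is over the whole promoter length. Among the matched genes without the palindrome, Chga, Scg3, Scg5 and Pcsk2 held this core and Pam did not. In Scg5 it lay at positions -175, 20 and 41 from the RefSeq start. In Chga, Scg3 and Pcsk2 it lay within 50 bases before that start, and these windows are shown for comparison.
Chga: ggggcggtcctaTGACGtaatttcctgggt
Scg3: gcgctgggtcgcTGACGccatcctcacgcc
Pcsk2: ctggcgggcgcgCGTCAcccgggctggcgc
They lie at chr12:102554885-102554914 (plus), chr9:75684069-75684098 (minus) and chr2:143546087-143546116 (plus), and the Pcsk2 match is on the opposite strand. A match is a description of the letters only. The 3 genes with the palindrome did not share a direction of change, as the values below show.

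The libraries held 22600963 to 36837908 reads in genes, and counts per 1000000 (CPM) use library sizes adjusted by trimmed mean of M values (TMM). Of the granule cell markers 11 of 11 were called toward dentate gyrus, and 7 of 8 genes of layer 5 and neighbouring cortical layers toward cortex. The lists were chosen with earlier results of these data known, so these counts are no independent check of the tissue labels. A pair of libraries held genes unlike their group. Cortex replicate 1 had 411 CPM of Car8, against 1.44 CPM in cortex replicate 2, and Dlk1 was at 83.4 CPM in dentate gyrus replicate 2 against 0.11 and 13 CPM in replicates 1 and 3. Interneuron markers summed to 1050 to 1070 CPM in cortex and 279 to 326 CPM in dentate gyrus, with 6 of 12 called toward cortex and 2 toward dentate gyrus, and Vip was at 0 CPM in dentate gyrus replicate 3. Astrocyte markers summed to 1200 to 1210 against 649 to 806 CPM, most of it Slc1a2 (984 and 1004 CPM in cortex). Of the 8 astrocyte markers 4 were higher in cortex, and the other 4 (Slc1a3, Aqp4, Gfap and Gja1) were not called and had log2 fold changes of 0.61 to 1.55, for a list median of -0.0061. Aldh1l1 was at 0 CPM in dentate gyrus replicate 2. Of 10 mossy cell and CA pyramidal markers 9 were tested, of which 5 were called toward cortex and 1 toward dentate gyrus (663 to 686 against 199 to 286 CPM summed). Of 7 oligodendrocyte markers 2 were higher in cortex (230 to 311 against 164 to 225 CPM). Microglial, vascular and choroid plexus markers summed to at most 8.74, 18.4 and 32.1 CPM in any library, with only the choroid plexus gene Kl called, toward dentate gyrus. The part of these cells in the results below was not tested, and in pulled-down RNA from tissue, fewer cells of a type and less RNA per cell cannot be told apart.

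The main comparison asked how the peptide-storing and peptide-processing transcripts differ between the tissues. Most were less abundant in dentate gyrus, and the difference was not uniform. The convertase gene Pcsk1 and the granin gene Vgf were 14- and 11.2-fold lower in dentate gyrus, Scg5, Cpe and Chga 2.58- to 3.89-fold lower, Pcsk2 and Chgb 1.79- and 1.35-fold lower, whereas Scg2 was 1.56-fold higher. The quasi-likelihood test of edgeR, with p-values adjusted over all tested genes (Benjamini-Hochberg, called under 0.05), placed 7 of the 10 higher in cortex and 1 higher in dentate gyrus, while Scg3 and Pam were not called. Over all 14136 genes 10.8% were higher in cortex and 10.5% higher in dentate gyrus. The median log2 fold change of the 10 genes, dentate gyrus minus cortex, was -1.10, beside 0.02 over all tested genes. In 9 of the 10 the libraries of the tissues did not overlap, as in 50.1% of all tested genes. Leaving out cortex replicate 1 together with dentate gyrus replicate 2 gave 5 genes called toward cortex and 1 toward dentate gyrus.

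**Figure D1:**
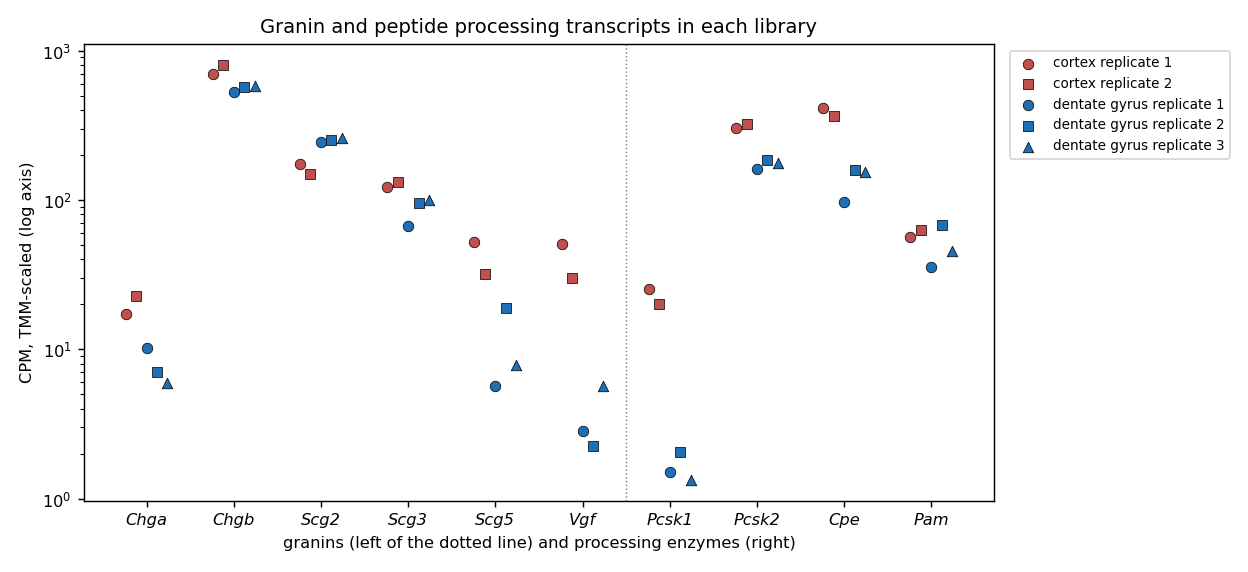
CPM (log axis) of each granin and processing enzyme gene in the 2 cortex libraries (red) and 3 dentate gyrus libraries (blue), 1 point per library. Scg2 is the only gene whose dentate gyrus libraries all lie above cortex, and Pam the only one whose tissues overlap.

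Vgf encodes a secreted granin, named for its induction by nerve growth factor, that is cut into several bioactive peptides (chromosome 5, 137026392 to 137033351, plus strand, GENCODE M21 on GRCm38). The cortex libraries held 50.5 and 29.9 CPM and the dentate gyrus libraries 2.81, 2.27 and 5.72 CPM, in the order of their replicate numbers, which is kept below. The lowest cortex library was well above the highest dentate gyrus library, although the cortex libraries themselves differed. The log2 fold change was -3.48 (SE 0.46), with an edgeR adjusted p of 0.000583. The dentate gyrus values rest on 51 to 146 counts per library.

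Scg5 encodes the neuroendocrine chaperone needed for the maturation of the convertase encoded by Pcsk2 (chromosome 2, 113776362 to 113829121, minus strand). It was at 52.1 and 31.7 CPM in cortex and at 5.68, 18.9 and 7.83 CPM in dentate gyrus replicates 1, 2 and 3. All dentate gyrus libraries were below cortex, but replicate 2 was the highest of them. The log2 fold change was -1.96 (SE 0.49, edgeR adjusted p 0.0176), which became 0.143 with cortex replicate 1 left out and 0.0510 with dentate gyrus replicate 3 left out. Fezf2, a selector gene of deep-layer cortical neurons, had the same order over the dentate gyrus libraries, at 1.82, 60.2 and 17.5 CPM, with 353 and 283 CPM in cortex. Its part in the Scg5 values was not tested.

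The chromogranins were unequal in level. Chga encodes chromogranin A, a granule-forming protein and peptide precursor (chromosome 12, 102554969 to 102565028, plus strand), and was at 17.2 and 22.6 CPM in cortex and 10.1, 7.02 and 5.95 CPM in dentate gyrus. The tissues did not overlap, and the log2 fold change was -1.37 (SE 0.40, edgeR adjusted p 0.0366). The call did not hold without single libraries: the adjusted p was 0.0871 and 0.216 without cortex replicates 1 and 2, and 0.0747 and 0.0896 without dentate gyrus replicates 2 and 3. Chgb, which encodes the related chromogranin B (chromosome 2, 132781278 to 132795079, plus strand), was at 702 and 804 CPM in cortex and 527, 570 and 579 CPM in dentate gyrus. Its log2 fold change was small and precise, -0.43 (SE 0.11, edgeR adjusted p 0.0206), with an adjusted p of 0.131 without cortex replicate 2 and 0.0688 when cortex replicate 1 and dentate gyrus replicate 2 were both left out.

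Scg2 encodes secretogranin II, the precursor of the peptide secretoneurin (chromosome 1, 79434669 to 79440120, minus strand). It was at 175 and 149 CPM in cortex and at 246, 253 and 262 CPM in dentate gyrus. Every dentate gyrus library was above both cortex libraries, and the dentate gyrus libraries lay close together. The log2 fold change was 0.65 (SE 0.14, edgeR adjusted p 0.00868), and with cortex replicate 2 left out the adjusted p rose to 0.0986. Scg3 encodes secretogranin III, which binds chromogranin A and the granule membrane (chromosome 9, 75643189 to 75684056, minus strand). It was at 122 and 131 CPM in cortex and 66.8, 95.1 and 101 CPM in dentate gyrus, all below cortex, with replicate 1 the lowest. Its log2 fold change of -0.53 (SE 0.20) did not pass with edgeR (adjusted p 0.0949), whereas it passed with DESeq2 (0.0419) and limma voom (0.0422).

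Among the enzymes, the convertases changed by different amounts. Pcsk1 encodes prohormone convertase 1, which acts early in the secretory pathway (chromosome 13, 75089826 to 75134861, plus strand). It was at 25.4 and 20.2 CPM in cortex and at 1.52, 2.04 and 1.33 CPM in dentate gyrus, where it rests on 34 to 55 counts per library. No library came near the other tissue, and the log2 fold change was -3.81 (SE 0.45, edgeR adjusted p 0.000286). Pcsk2 encodes prohormone convertase 2, which acts later, in maturing vesicles (chromosome 2, 143546156 to 143816285, plus strand). It was at 302 and 323 CPM in cortex and at 161, 185 and 178 CPM in dentate gyrus, again without overlap. Its log2 fold change was -0.84 (SE 0.13, edgeR adjusted p 0.00147). The antisense genes Pcsk2os1 and Pcsk2os2 overlap 260 and 99 bases of Pcsk2 exons, and the strand setting of the counting is not given in the sources used here. Pcsk2os1 held 118 to 628 counts per library, against 4170 to 10593 for Pcsk2.

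Cpe encodes carboxypeptidase E, which trims the basic residues that the convertases leave (chromosome 8, 64592542 to 64693054, minus strand). It was at 416 and 365 CPM in cortex and at 97.5, 160 and 155 CPM in dentate gyrus, with replicate 1 the lowest. The log2 fold change was -1.51 (SE 0.20, edgeR adjusted p 0.000613). Glia also express Cpe. Of the astrocyte markers given above, the 4 called were higher in cortex, like Cpe, and the 4 not called had positive log2 fold changes. Of the oligodendrocyte markers 2 were higher in cortex and 5 were not called. The part of glia in the Cpe values was not tested. Pam encodes the peptide amidating enzyme (chromosome 1, 97795114 to 98095646, minus strand). It was at 56.1 and 63.1 CPM in cortex and at 35.7, 68.1 and 45.2 CPM in dentate gyrus, so that dentate gyrus replicate 2 lay above both cortex libraries. Its log2 fold change was -0.26 (SE 0.28, edgeR adjusted p 0.576), and the 95% interval of the ratio of dentate gyrus to cortex, 0.539 to 1.29, runs from a lower to a higher level in dentate gyrus. The non-coding gene B230216N24Rik overlaps 188 bases of Pam exons on the same strand and held 19 to 235 counts per library.

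**Figure D2:**
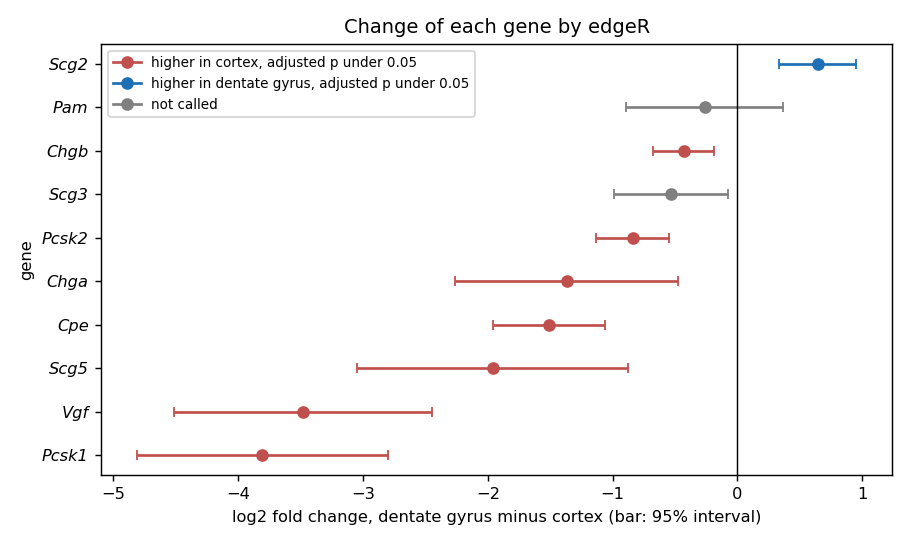
Log2 fold change of each gene, dentate gyrus minus cortex, with its 95% interval from edgeR; red and blue mark genes called higher in cortex and in dentate gyrus, grey those not called. Pcsk1 (-3.81) and Vgf (-3.48) stand at the low end and Scg2 (0.65) is the only gene above 0.

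Pcsk1, Vgf, Pcsk2 and Cpe were called under all 15 alternatives run for single genes (other scalings, filters, tests, the replicate block and left-out libraries). The log2 fold change ranged from -4.01 to -3.62 for Pcsk1, from -4.00 to -2.81 for Vgf, from -0.93 to -0.80 for Pcsk2 and from -1.65 to -1.33 for Cpe.

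Levels of different genes were compared per kb of exon. The mean per kb was highest for Chgb in either tissue, with 275 ± 26.4 CPM per kb in cortex (SD, n = 2) and 204 ± 10.2 in dentate gyrus (SD, n = 3). Among 23113 genes with an annotated length, Chgb stood at percentile 99.73 in cortex and 99.64 in dentate gyrus. Cpe came next in cortex (150 ± 13.7 CPM per kb), followed by Scg2 (64.5 ± 7.35), Scg3 (46.3 ± 2.21), Pcsk2 (39.5 ± 1.91), Scg5 (26.7 ± 9.19), Vgf (13.5 ± 4.88), Chga (7.23 ± 1.40), Pam (5.01 ± 0.421) and Pcsk1 (4.07 ± 0.662). Neighbours in this order did not overlap between the cortex libraries. In dentate gyrus Scg2 came after Chgb (101 ± 3.11 CPM per kb), ahead of Cpe (52.6 ± 13.2), Scg3 (32.0 ± 6.64), Pcsk2 (22.1 ± 1.55), Scg5 (6.89 ± 4.53), Pam (4.18 ± 1.40), Chga (2.79 ± 0.787), Vgf (1.21 ± 0.624) and Pcsk1 (0.291 ± 0.0659). There Scg5 overlapped Pam, and Pam overlapped Chga. Pcsk1 stood at percentile 74.62 in cortex and 52.34 in dentate gyrus, Vgf at 87.99 and 61.73, and Scg2 at 98.03 and 98.96. The 23113 ranked genes include genes without any count, since only 18950 of the 32531 genes listed had one. A percentile near 50 is therefore not a middle level among expressed genes. With the length of the longest coding transcript in place of all exons, Pcsk2 reached 66.2 CPM per kb in cortex, above Scg2 at 64.5, and 37.0 CPM per kb in dentate gyrus, level with Scg3 at 36.7. Pam then stood at 14.5 CPM per kb in cortex, above Vgf (14.2) and Chga (10.6), and at 12.1 CPM per kb in dentate gyrus, above Scg5 (8.95).

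The summed level of the 6 granins was 1120 and 1170 CPM in cortex and 858, 946 and 961 CPM in dentate gyrus, and that of the 4 enzymes was 799 and 772 CPM against 296, 415 and 379 CPM. Of the reads of the 10 genes, Chgb supplied 36.6% and 41.4% in cortex and 41.8% to 45.6% in dentate gyrus. The share of Scg2 was 9.14% and 7.69% in cortex and 18.6% to 21.3% in dentate gyrus, while that of Cpe was 21.7% and 18.8% against 8.45% to 11.7%. These shares describe reads, which also depend on transcript length.

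Ratios of a pair of genes within a library do not depend on how libraries are scaled, and 6 were compared on the log2 scale of CPM per kb. Lengths were those of all exons. Another length would shift a ratio alike in every library, leaving its fold between tissues unchanged. The ratio of Pcsk1 to Pcsk2 was 0.119 and 0.0881 in cortex and 0.0133, 0.0156 and 0.0106 in dentate gyrus, 7.88-fold lower. Vgf stood at 0.244 and 0.170 of Scg2 in cortex and at 0.00968, 0.00756 and 0.0185 in dentate gyrus, 18.4-fold lower. Pcsk1n, which encodes proSAAS, a granin-like inhibitor of the Pcsk1 enzyme, was itself lower in dentate gyrus, but less so than Pcsk1. The ratio of Pcsk1n to Pcsk1 was 5.59 and 7.87 in cortex and 46.8, 26.7 and 46.8 in dentate gyrus, 5.85-fold higher.

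The ratio of Cpe to Pam was 33.8 and 26.4 in cortex and 12.4, 10.7 and 15.6 in dentate gyrus, 2.34-fold lower without overlap. The ratio of Chga to Chgb was 0.0244 and 0.0280 against 0.0191, 0.0123 and 0.0102, also without overlap. The ratio of the chaperone gene Scg5 to Pcsk2 was 0.870 and 0.494 in cortex and 0.178, 0.515 and 0.222 in dentate gyrus, where replicate 2 lay between the cortex libraries. A two-sided exact permutation test of 2 against 3 libraries cannot give a p under 0.1. That smallest p was reached by Pcsk1:Pcsk2, Vgf:Scg2, Pcsk1n:Pcsk1 and Cpe:Pam (adjusted over the 6 ratios, 0.15 by exact permutation), and the p was 0.2 for Chga:Chgb and 0.3 for Scg5:Pcsk2.

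**Figure D3:**
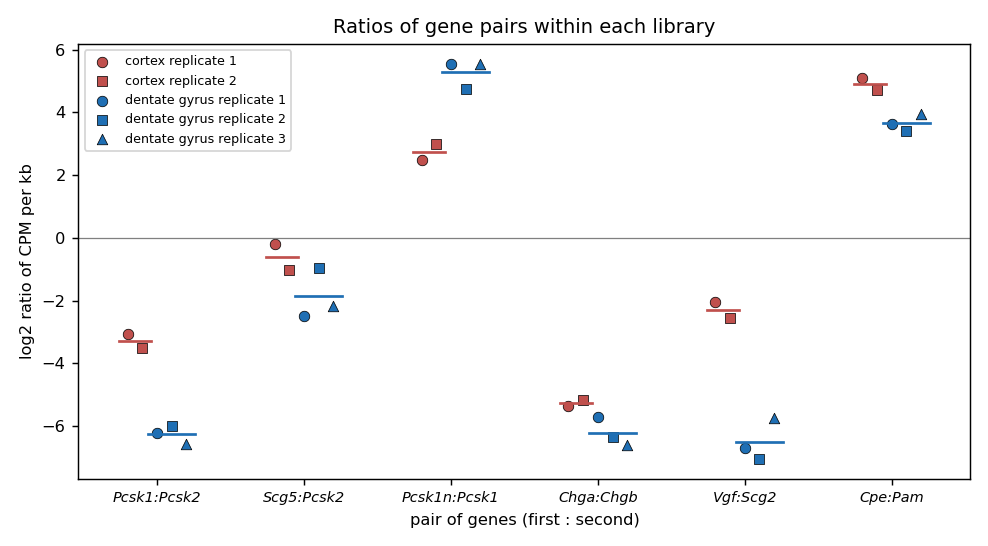
Log2 ratio of CPM per kb for 6 pairs of genes in each library, with lines at the mean of each tissue (red, cortex; blue, dentate gyrus). Tissues are apart for 5 pairs and overlap for Scg5:Pcsk2.

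The genes whose pattern over the 5 libraries was most like that of the outermost called genes were taken by the root mean square (RMS) difference of centred log2 CPM. For Pcsk1 the nearest was Egr1, an activity-induced transcription factor gene, with an RMS difference of 0.112, at 1290 and 1070 CPM in cortex and 96.3, 104 and 69.5 CPM in dentate gyrus. Nrm (0.144) and Inppl1 (0.146) followed, at very low levels in dentate gyrus. Nrm was there at 0.0552, 0.0888 and 0.0392 CPM and Inppl1 at 0.414, 0.444 and 0.274 CPM. For Scg2 the nearest were Elp3 (0.0416), C2cd2l (0.0432) and Phf21a (0.0525). The measure rests on 5 libraries in 2 tissues, so genes with a similar difference between the tissues come out as near. Shared regulation was not tested.

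Other genes of the pathway were read from the same fit. Each list below is to be read beside the shares over all tested genes, 10.8% called toward cortex and 10.5% toward dentate gyrus. The counts of the convertase and peptide-finishing lists are near these shares. Of 7 other convertases and convertase inhibitors, 1 was called toward cortex and 1 toward dentate gyrus. Pcsk1n was at 55.7 and 62.2 CPM in cortex and 27.8, 21.4 and 24.4 CPM in dentate gyrus (log2 -1.26, SE 0.24, edgeR adjusted p 0.00432). It was not called when cortex replicate 1 and dentate gyrus replicate 2 were both left out. Pcsk5, another convertase gene, was at 20.0 and 26.8 CPM in cortex and 31.4, 62.2 and 74.3 CPM in dentate gyrus (edgeR adjusted p 0.0348). None of this list was called higher in dentate gyrus without dentate gyrus replicate 2 or dentate gyrus replicate 3. Of 12 other peptide-finishing genes 10 were tested, with 1 called toward cortex and 1 toward dentate gyrus. Cpd, a carboxypeptidase of the trans-Golgi network, was higher in dentate gyrus (80.4 and 65.0 against 139, 112 and 130 CPM, edgeR adjusted p 0.0127), in the direction opposite to Cpe. Cyb561, a vesicle membrane protein that supplies electrons for ascorbate-dependent enzymes such as the one Pam encodes, was higher in cortex (27.9 and 29.4 against 3.15, 5.60 and 10.4 CPM, edgeR adjusted p 0.0102). Neither was called without cortex replicate 2.

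Of 21 genes of dense core vesicle formation and release, 20 were found and tested, with 6 called toward cortex, 3 toward dentate gyrus and a median log2 fold change of -0.04. The vesicle membrane proteins of the receptor phosphatase family, Ptprn2 and Ptprn, averaged 483 ± 16 and 218 ± 3.74 CPM over the cortex libraries (SD, n = 2), compared with 126 ± 12.4 and 79.4 ± 14.5 CPM over those of dentate gyrus (SD, n = 3). Cadps, a priming factor for vesicle release, was at 409 ± 48.1 and 214 ± 18.2 CPM, and the vesicle protein gene Syt4 at 343 ± 4.07 and 166 ± 39.2 CPM. Toward dentate gyrus, the trafficking GTPase gene Rab2a was at 1480 ± 123 against 813 ± 17.7 CPM, and Syt10 and Ica1l had log2 fold changes of 1.87 (SE 0.42) and 0.67 (SE 0.18). With cortex replicate 1 left out, alone or with dentate gyrus replicate 2, 1 was called toward dentate gyrus.

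Of 14 peptide-degrading enzyme genes 12 were tested, with 2 called toward cortex and 1 toward dentate gyrus. For a list this short, that is near the shares over all tested genes, 10.8% and 10.5%. The neurolysin gene Nln was at 24.4 and 19.4 CPM in cortex and 8.89, 8.31 and 8.07 CPM in dentate gyrus, Ace was higher in cortex (edgeR adjusted p 0.0474) and Ece2 was higher in dentate gyrus (edgeR adjusted p 0.0355). These counts depended on the processing and on single libraries. Toward cortex and dentate gyrus, DESeq2 called 5 and 2, edgeR with no filter 4 and 2, and edgeR with the replicate block 0 and 0. With cortex replicate 1 or 2 left out, 0 of the list were called toward cortex, and with dentate gyrus replicate 3 left out, 1. Toward dentate gyrus, 0 were called with cortex replicate 1 or dentate gyrus replicate 1 left out.

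The substrates of the pathway were read beside its enzymes. Of 23 neuropeptide precursor genes 13 were tested, of which edgeR called 5 toward cortex and 0 toward dentate gyrus, with a median log2 fold change of -1.90. At an unadjusted p under 0.05, 2 were higher in dentate gyrus, and DESeq2 called 2 and limma voom 1 there. Cck was at 1170 and 1044 CPM in cortex and 299, 344 and 333 CPM in dentate gyrus, and Sst at 700 and 641 against 113, 80.8 and 72.4 CPM. Adcyap1, the PACAP precursor gene, was at 26.5 and 45.8 CPM in cortex and 2.43, 4.62 and 0.352 CPM in dentate gyrus, and Vip was also higher in cortex (edgeR adjusted p 0.0138). Sst, Vip and Npy, 3 of the 5 called genes, are also among the interneuron markers, whose sums are given above, and the part of interneurons in this count was not tested. With cortex replicate 2 left out, 3 were called toward cortex.

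Vgf, Scg2 and Pcsk1 are often counted among late activity-induced genes, so activity-regulated genes were read as a list. Of 18 such genes 17 were tested, of which edgeR called 15 toward cortex and 0 toward dentate gyrus, with a median log2 fold change of -2.26. At an unadjusted p under 0.05, 2 were higher in dentate gyrus, and DESeq2 and limma voom each called 1 there. Mean levels in cortex (SD, n = 2) and dentate gyrus (SD, n = 3) were 782 ± 89.8 and 202 ± 4.62 CPM for Homer1, with Arc at 178 ± 49.1 and 18.8 ± 6.65 CPM, Dusp1 at 141 ± 46.2 and 11.5 ± 4.12 CPM, and Egr1 had a log2 fold change of -3.72 (SE 0.18). With cortex replicate 1 left out, 7 were called toward cortex. Over the list the log2 fold changes ran from -5.05 (Egr2) to 1.25 (Btg2, not called), beside -3.81 for Pcsk1 and -3.48 for Vgf. Scg2 was called in the direction opposite to these 15 genes.

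**Figure D4:**
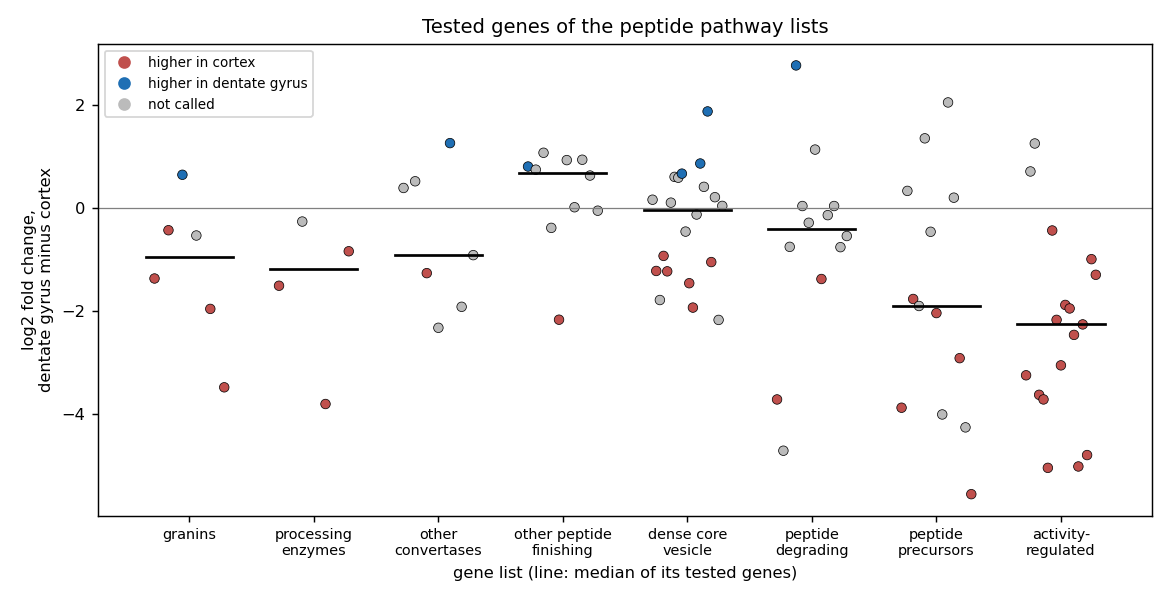
Log2 fold change, dentate gyrus minus cortex, of each tested gene of the granins, the processing enzymes and 6 further lists, with a line at each list's median; red and blue are genes called higher in cortex and in dentate gyrus. Activity-regulated genes lie mostly below 0 (15 of 17 called higher in cortex), while dense core vesicle genes lie on both sides of 0.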

How the data were processed

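RNA from anti-EGFP ribosome pulldowns was sequenced in 2 cerebral cortex and 3 dentate gyrus libraries. The deposited values are raw counts per gene symbol, made by the authors with STAR 2.0.0e and HTSeq on mm10, per the submitters' processing notes. For the annotation, strand setting and HTSeq version: not given in the sources used here. Rows that name no gene were left out: reads without a feature were 10.59% to 14.83%, ambiguous reads 1.81% to 1.87% and reads that were not unique 25.03% to 31.76% of each library.

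Counts were tested with edgeR 4.0.16 in R 4.3.3 (TMM, filterByExpr, quasi-likelihood F test on tissue, Benjamini-Hochberg over 14136 genes, threshold 0.05). The SE is the log2 fold change divided by the root of F, and the 95% intervals use it. CPM use the TMM-scaled sizes, log2 CPM a prior count of 2. Lengths and positions are from GENCODE M21 (GRCm38), promoters from RefSeq. Ratios had exact permutation tests. Fits were tested on simulated data. Alternatives were edgeR settings, DESeq2 1.42.0, limma 3.58.1 voom and left-out libraries; a test against a 1.2-fold change and transcript length were added after seeing the data. Figures used matplotlib 3.10.9.

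The genes and lists were chosen with earlier results of these data known. Named in the text are all 10 genes, up to 4 called genes per direction in each pathway list, and the 3 most similar genes for the outermost called gene in each direction; the marker genes with values and the overlapping genes were picked with their values in view. A gene of the convertase list is not reported here.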

Additional observations from a re-analysis of the deposited data

How the results depend on the processing

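All 10 genes kept their direction under the 16 alternatives run. In 9 of them the tissues did not overlap, so leaving out libraries could not reverse the direction except through rescaling. The robust dispersion fit of edgeR and the test against a 1.2-fold change keep the fold changes of the main fit, so they could not alter a direction. The count of all genes called, 3009, was 1886 to 2775 when each library was left out in turn, and 1578 when cortex replicate 1 and dentate gyrus replicate 2 were both left out. The count of the 10 genes higher in cortex, 7, ranged from 5 to 8 over all alternatives, and the count higher in dentate gyrus, 1, was 0 to 1 with each library left out, where 0 came without cortex replicate 2. With the replicate block 2237 genes were called in all, with 5 of the 10 genes toward cortex and 1 toward dentate gyrus; Chga (adjusted p 0.141) and Scg5 (0.0512) were then not called. Deviations of same-numbered libraries from their tissue mean correlated at -0.004 and -0.0163. With 2 cortex libraries the cortex deviations mirror each other, so these values cannot show whether replicate numbers mark a shared animal or batch. Against a 1.2-fold change, 2448 genes passed, among them 5 of the 10 toward cortex and 1 toward dentate gyrus. The differences in the 6 ratios kept their direction without each library. For every pair but Scg5:Pcsk2 the tissues did not overlap, so leaving out a library could not reverse the direction. The cause of the lost calls was not tested, and leaving out a library also lowers the number of libraries. The low counts of Pcsk1 and Vgf in dentate gyrus limit the precision of their folds, and the 95% intervals include the spread between libraries but rest on 2 and 3 of them.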
